A study of Mus musculus with 30 samples.

Results

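Semaphorins, ephrins and Slits are guidance cues, proteins on or outside a cell that turn its neighbours' growth and movement, and plexins, Eph receptors, Robo and Unc5 proteins are receptors for guidance cues. The genes described here were taken by symbol from the annotated protein-coding genes: the semaphorins of classes 3 to 7, the A, B and C plexins, the EphA and EphB receptors, the ephrin-A and ephrin-B ligands, Robo1 to Robo4, Slit1 to Slit3 and Unc5a to Unc5d. They number 61 of the 55487 genes in each count table. Plxnd1 is not among them.

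RNA was sequenced from mouse cells labelled as embryonic stem cells, in 6 groups of 3 libraries. In experiment 1 the line iETV2, made for doxycycline (DOX)-driven expression of the ETS transcription factor ETV2, was sampled untreated and with DOX. In experiment 2 the line iETV2-KDM4A (H188A), called the H188A line here, was sampled untreated and with DOX; its name gives KDM4A, an enzyme that demethylates lysine 9 of histone H3, with a histidine-to-alanine substitution. In experiment 3, control cells were compared with cells of genotype KDM4A/4C DKO, a double knockout. Experiment 4 located H3K9me3 (trimethylated lysine 9 of histone H3, a mark of silent chromatin) along the genome by ChIP-seq, in samples described as embryoid bodies. It has 3 libraries after DOX and 3 without. The labels do not give their line, and the material is not described in the same way as that of the RNA samples. The number of clones, the DOX dose, the duration of treatment and the culture conditions of the RNA samples are not given in the sources used here.

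Class 3 semaphorins are secreted and mostly act through a neuropilin that holds the ligand and an A plexin that carries the signal into the cell, whereas the membrane-bound classes bind plexins directly. Ephrin-A ligands are tethered by a lipid anchor and ephrin-B ligands span the membrane, so both signal between touching cells, and ephrin-B ligands can signal back into the cell that carries them. Slits are secreted ligands of Robo receptors, and Unc5 proteins are receptors of netrins. All of these families were first studied in growing axons. They also act in early mesoderm and in blood vessels, where Efnb2 marks arteries, Ephb4 marks veins and Robo4 is found mainly in endothelial cells.

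Library totals ran from 40334911 to 68970038 counts. Levels are given in CPM (counts scaled by the total of the library), which are not corrected for transcript length and so are compared within a gene only; log2 changes are given ± SE, and "rose", "fell" and "changed" are used where the adjusted p was under 0.05. Of the 61 genes, 49 had a mean of at least 1 CPM in all 6 groups and 2 were under 1 CPM in all of them. Etv2 was at 2.73, 3.02 and 3.05 CPM in untreated iETV2 libraries and at 19.7, 18.1 and 18.2 CPM with DOX; in the H188A line it was at 0.669, 0.139 and 0.319 CPM and 11.5, 18.6 and 15.5 CPM. Pluripotency markers (8 genes, among them Pou5f1 and Nanog) summed to 927 to 983 CPM in untreated iETV2 and 1659 to 1705 CPM in the untreated H188A line, but to only 141 to 152 CPM among the controls of experiment 3, against 2219 to 2281 CPM in the libraries labelled DKO. Those control libraries go against the label of embryonic stem cell. Primitive streak markers (7 genes) summed to 1267 to 1339 CPM in untreated iETV2 and 935 to 963 CPM in the libraries labelled DKO. They summed to 19.3 to 20.3 CPM in the untreated H188A line, so the other groups under this label were not alike either. Treated replicate 1 of the H188A line also stood apart, with 7 endoderm markers at a sum of 703 CPM against 339 and 347 CPM in the other treated libraries. Whether replicates came from separate cultures is not stated in the labels, so the p-values reflect only how much these libraries vary, which may be technical.

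With DOX in the iETV2 line, 35 of the 61 guidance genes changed, 14 of them upward and 21 downward. That is 57.4% of the genes tested, beside 27.0% of all 22025 genes tested (13.7% higher and 13.3% lower). With a filter of at least 1 CPM in 3 libraries, 39 of 57 guidance genes and 6643 of all 15633 genes were called. The median size of the log2 change was 0.54 among the guidance genes and 0.26 among all genes. Groups did not overlap for 42 of the 61 guidance genes, more than the 35 that passed the test. The share of all genes whose groups did not overlap was not counted, in this or any later comparison. Statements on overlap therefore only describe the gene they name. The Unc5 receptors Unc5c, Unc5b and Unc5d rose, all 3 Slits fell while Robo1, Robo2 and Robo4 rose, and the largest changes among the class 3 semaphorins were a rise of Sema3a and a fall of Sema3e. In such bulk samples, fewer cells of a type and less RNA per cell cannot be told apart.

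Among the netrin receptors, Unc5c had the largest change of all 61 genes. It was at 2.96, 3.44 and 3.33 CPM without DOX and at 112, 119.8 and 115 CPM with DOX, a log2 change of 5.17 ± 0.09 (adjusted p = 3e-15). The groups did not come near each other, since the lowest treated library was far above the highest untreated one. Unc5b, which in endothelial cells also binds Robo4, was well expressed already without DOX. Its level went from 138, 138 and 135 CPM to 233, 245 and 223 CPM (log2 change 0.78 ± 0.07, adjusted p = 2.77e-07), again without overlap. Unc5d was low throughout, at 1.86, 1.55 and 1.43 CPM untreated and 2.34, 3.12 and 3.09 CPM treated (log2 change 0.83 ± 0.21, adjusted p = 0.00771); without treated replicate 2 its adjusted p was 0.0583, and fitted on the 12 libraries of both lines it was 0.204.

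All 7 genes of the Slit and Robo family passed the test, although the call for Robo3 was lost in another fit. Slit2 was at 216, 225 and 214 CPM without DOX and 78.8, 87.6 and 78.5 CPM with DOX (log2 change -1.41 ± 0.07, adjusted p = 5.52e-10). Slit1 fell from 34.1, 34.2 and 35.2 CPM to 8.65, 7.50 and 9.34 CPM (log2 change -2.01 ± 0.09). Slit3 fell from 141, 157 and 143 CPM to 114, 116 and 97.8 CPM (log2 change -0.41 ± 0.09, adjusted p = 0.00167). All 3 ligands were thus lower in every treated library than in any untreated one. Of their receptors, Robo2 was at 1.53, 1.67 and 2.44 CPM without DOX and at 16.8, 17.7 and 16.00 CPM with DOX (log2 change 3.20 ± 0.14, adjusted p = 5.06e-11). Robo4, the endothelial member of the family, was at 1.70, 1.44 and 2.79 CPM and then at 7.73, 6.51 and 7.93 CPM (log2 change 1.94 ± 0.19, adjusted p = 8.25e-07). Robo1, a widely expressed receptor, was at 66.7, 72.04 and 66.9 CPM and then at 98.2, 103 and 94.2 CPM (log2 change 0.53 ± 0.07). The remaining receptor, Robo3, known from axons that cross the midline, fell (log2 change -0.74 ± 0.18, adjusted p = 0.00473); its adjusted p was 0.428 when fitted on all 12 libraries of both lines.

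**Figure D1:**
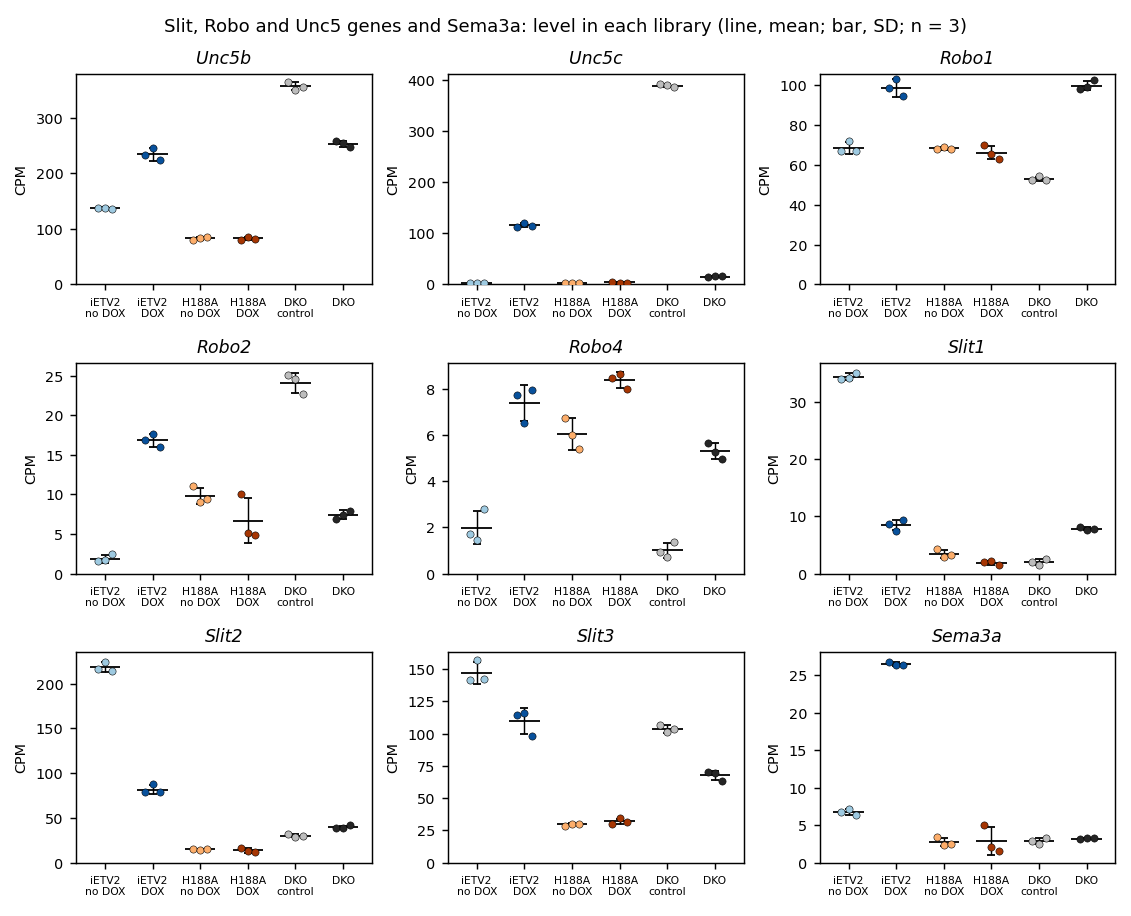
Level in CPM of 9 guidance genes in each of the 18 RNA libraries, by group; each point is 1 library, the line is the mean and the bar the SD of 3 libraries, and every axis starts at 0. Unc5c, Robo2 and Sema3a are higher with DOX in iETV2 and Slit1 and Slit2 lower, while the H188A groups lie close together for Unc5c, Unc5b, Slit2 and Slit3.

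Among the secreted class 3 semaphorins, Sema3a, a ligand of the neuropilin Nrp1, was at 6.75, 7.19 and 6.41 CPM without DOX and 26.8, 26.3 and 26.4 CPM with DOX (log2 change 1.97 ± 0.09, adjusted p = 8.68e-11). The treated libraries lay within 1 CPM of each other. Sema3e, which binds Plxnd1 without a neuropilin, went the other way, from 26.2, 28.3 and 25.4 CPM to 9.52, 10.5 and 9.73 CPM (log2 change -1.41 ± 0.09, adjusted p = 4.18e-09). Sema3c, needed for the outflow tract of the heart, was low, at 4.52, 5.20 and 3.43 CPM and then 2.04, 2.40 and 1.80 CPM (log2 change -1.07 ± 0.20, adjusted p = 0.000703). Sema3b also fell, but its call was lost without untreated replicate 1 (adjusted p = 0.137), untreated replicate 3 (0.0692), treated replicate 1 (0.0957) or treated replicate 2 (0.0636). Sema3f, a ligand of Nrp2, was at 29.5, 31.3 and 29.2 CPM and 27.5, 30.5 and 25.7 CPM, and its groups overlapped. The neuropilins, which are not among the 61 genes, were higher with DOX: Nrp1 was at 13.8, 13.4 and 15.7 CPM untreated and 53.3, 51.1 and 49.6 CPM treated (log2 change 1.86 ± 0.07).

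Of the membrane-bound semaphorins, Sema6d and Sema6a, ligands of A plexins, both fell. Sema6a was at 300.2, 326 and 305 CPM without DOX and 163, 180.4 and 153 CPM with DOX (log2 change -0.90 ± 0.08, adjusted p = 2.85e-07). Sema6d was at 70.8, 77.8 and 75.99 CPM and then at 34.9, 36.9 and 34.3 CPM (log2 change -1.07 ± 0.07). Both ligands were lower in every treated library than in any untreated one. Sema4d, the ligand of Plxnb1, fell less, from 32.3, 31.1 and 29.3 CPM to 19.6, 22.8 and 19.8 CPM (log2 change -0.56 ± 0.08), and Sema5b rose from 5.69, 4.96 and 5.61 CPM to 10.4, 10.1 and 9.94 CPM (log2 change 0.92 ± 0.11). Sema7a, a lipid-anchored ligand of Plxnc1, was called higher (log2 change 0.33 ± 0.10, adjusted p = 0.0236), but its adjusted p rose to between 0.0567 and 0.182 when any library but untreated replicate 3 was left out. Of the 6 class 4 semaphorins only Sema4d and Sema4g passed the test (Sema4g with an adjusted p of 0.284 in the 12-library fit and 0.0848 without a filter on low counts), and of the 7 genes of classes 5 to 7 Sema6b and Sema6c did not.

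The plexins moved in both directions, with 3 of 8 higher and 3 lower. Plxna4, a receptor of Sema3a and Sema6a, was at 9.47, 9.99 and 12.5 CPM without DOX and at 31.9, 35.2 and 30.1 CPM with DOX (log2 change 1.63 ± 0.10, adjusted p = 2.15e-09). Plxnc1 rose from 4.36, 4.76 and 5.92 CPM to 12.7, 13.7 and 10.2 CPM (log2 change 1.31 ± 0.13), and Plxna2, a receptor of Sema6a, from 251, 269.9 and 259 CPM to 374, 392 and 358 CPM (log2 change 0.54 ± 0.07). Plxnb1, the receptor of Sema4d, fell together with that ligand. It was at 146, 154 and 148 CPM and then at 89.04, 87.9 and 82.2 CPM (log2 change -0.78 ± 0.07, adjusted p = 3.38e-07). Plxna3 fell as well (log2 change -0.62 ± 0.09). The fall of Plxnb2 was small (log2 change -0.25 ± 0.07). Its call was lost without untreated replicate 1 (adjusted p = 0.101) or replicate 2 (0.0645), and without a filter on low counts (0.319).

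Of the ephrins and Eph receptors, Efnb2 fell and Ephb4 did not pass the test. Bulk levels do not show which cells carry either RNA. Efnb2 was at 83.2, 86.8 and 83.9 CPM without DOX and 41.2, 45.03 and 40.7 CPM with DOX (log2 change -0.99 ± 0.07, adjusted p = 2.22e-08). Ephb4, its receptor, was at 126, 117 and 116 CPM and 141, 137 and 129.7 CPM (log2 change 0.20 ± 0.07, adjusted p = 0.056). The levels of Ephb4 did not overlap between the groups, and the adjusted p was just above the threshold. Efnb3 rose from 18.3, 17.1 and 18.3 CPM to 32.9, 30.7 and 32.5 CPM (log2 change 0.85 ± 0.07), and Efnb1 was at 30.00, 28.2 and 28.7 CPM and 25.99, 24.9 and 24.1 CPM (log2 change -0.20 ± 0.07, adjusted p = 0.0594). The other receptors of B ephrins that passed were Ephb1 (log2 change -1.32 ± 0.13) and Ephb2 (log2 change -0.99 ± 0.07), both lower with DOX. On the A side, Efna3 rose from 20.4, 16.8 and 20.7 CPM to 41.01, 39.6 and 45.2 CPM (log2 change 1.14 ± 0.08). Epha2, a receptor for several A ephrins, fell from 132, 124 and 127 CPM to 72.1, 71.3 and 68.2 CPM (log2 change -0.84 ± 0.07, adjusted p = 8.44e-08). Of the 9 EphA receptors, Epha2 and Epha7 fell and the other 7 did not pass the test; the adjusted p of Epha7 was 0.0595 in the 12-library fit.

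Markers of other cell types moved in the same comparison. All 10 endothelial markers rose, their sum going from 33.8 to 38.7 CPM to 489 to 505 CPM, and so did all 8 blood markers, from 12.6 to 16.9 CPM to 296 to 319 CPM. The sum of 6 cardiac mesoderm markers went from 54.2 to 54.8 CPM to 301 to 310.2 CPM with 5 of 6 higher. That of 11 neural markers went from 68.4 to 73.8 CPM to 34.3 to 36.4 CPM with 7 lower. That of 7 endoderm markers went from 248 to 265 CPM to 61.2 to 66.8 CPM, with 3 of 6 tested lower and 1 higher. Fibroblast markers moved both ways (3 higher, 2 lower), as did primitive streak (5 higher, 2 lower) and pluripotency markers (4 higher, 1 lower). The part of these markers' cells in the guidance gene changes was not tested.

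The promoters of 4 genes are shown because their RNA changed with DOX and the windows hold the core letters that ETS factors such as ETV2 recognise: Unc5c (ENSMUSG00000059921), Robo4 (ENSMUSG00000032125) and Sema3a (ENSMUSG00000028883), which rose, and for contrast Epha2 (ENSMUSG00000006445), which fell. The sequences are the 250 bases before a RefSeq start site of GRCm38.p6, on the plus strand, at chr3:141465314-141465563, chr9:37401722-37401971, chr5:13396534-13396783 and chr4:141300971-141301220. The Robo4 and Sema3a start sites lie inside the annotated span of their genes, so other transcripts begin further upstream. Capitals mark a match on either strand to the motif CCGGAA, to the related motif CAGGAA or to the motif GGAAGT; minus-strand matches read as the reverse complement.
Unc5c: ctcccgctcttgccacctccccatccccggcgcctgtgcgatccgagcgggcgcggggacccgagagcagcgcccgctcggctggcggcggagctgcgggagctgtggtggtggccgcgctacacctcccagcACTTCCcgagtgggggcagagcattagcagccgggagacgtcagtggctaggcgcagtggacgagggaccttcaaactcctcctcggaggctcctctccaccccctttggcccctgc
Robo4: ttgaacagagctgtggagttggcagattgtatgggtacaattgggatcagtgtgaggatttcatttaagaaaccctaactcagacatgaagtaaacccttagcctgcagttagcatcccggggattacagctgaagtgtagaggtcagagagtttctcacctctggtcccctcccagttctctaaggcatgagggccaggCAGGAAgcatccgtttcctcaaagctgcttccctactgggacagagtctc
Sema3a: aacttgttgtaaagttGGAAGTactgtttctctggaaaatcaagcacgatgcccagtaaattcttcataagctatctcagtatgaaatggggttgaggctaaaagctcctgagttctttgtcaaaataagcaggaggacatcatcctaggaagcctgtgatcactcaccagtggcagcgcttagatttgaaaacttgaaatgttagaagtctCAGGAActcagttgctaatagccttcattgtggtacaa
Epha2: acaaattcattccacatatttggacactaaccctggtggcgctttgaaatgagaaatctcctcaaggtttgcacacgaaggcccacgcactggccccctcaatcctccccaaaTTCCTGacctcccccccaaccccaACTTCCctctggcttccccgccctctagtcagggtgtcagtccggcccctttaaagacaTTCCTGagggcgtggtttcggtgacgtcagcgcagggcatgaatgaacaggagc

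In the Unc5c window GGAAGT was found at position -117 from the start site, on the minus strand. The Robo4 window holds CAGGAA at -50, and that of Sema3a holds GGAAGT at -234 and CAGGAA at -38, all on the plus strand. Epha2, whose RNA fell, has more matches than any of these: CAGGAA at -137 and -54 and GGAAGT at -113, all on the minus strand. Over windows of 300 bases (250 before to 50 after the start site), CAGGAA was present in 21.4% of the 14 windows of guidance genes that rose, in 21.7% of the 23 windows of those that fell and in 29% of 21263 windows of all protein-coding genes. For GGAAGT these shares were 14.3%, 17.4% and 24.8%, and for CCGGAA 7.14%, 8.7% and 18.7%. The longer AACAGGAA, whose last 6 letters are CAGGAA, was found in 0 of the 14 windows, in 4.35% of the 23 and in 2.4% of all. CAGGAA and GGAAGT can share the letters GGAA. Windows were found for 53 of the 61 genes, and a match is a description of letters only.

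In the H188A line only 6 of the 61 guidance genes changed with DOX, 9.84% of those tested, beside 3.02% of all 21086 genes tested (2.22% higher and 0.801% lower). Sema3f, Epha1, Ephb4, Plxnb2 and Robo4 rose and Plxna4 fell. The median size of the log2 change was 0.22 among the guidance genes and 0.19 among all genes. Unc5c was at 3.57, 2.77 and 1.97 CPM without DOX and 5.27, 3.73 and 2.85 CPM with DOX, with overlapping groups, and Slit2 at 15.6, 14.2 and 14.7 CPM and 16.8, 12.6 and 11.7 CPM.

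Sema3f was at 7.07, 6.45 and 6.08 CPM without DOX and 10.2, 10.5 and 10.05 CPM with DOX in this line (log2 change 0.70 ± 0.09, adjusted p = 0.00674). Robo4 was at 6.74, 5.98 and 5.38 CPM and then at 8.46, 8.65 and 7.97 CPM (log2 change 0.52 ± 0.11, adjusted p = 0.0385). Both genes were higher in every treated library. Epha1, the founding Eph receptor, was at 30.5, 29.7 and 28.3 CPM and 34.8, 39.4 and 40.5 CPM (log2 change 0.42 ± 0.07, adjusted p = 0.0198), and Ephb4 at 76.2, 78.6 and 76.5 CPM and 89.6, 91.05 and 88.9 CPM (log2 change 0.27 ± 0.05, adjusted p = 0.024). Plxnb2, a receptor of class 4 semaphorins, was at 138, 142 and 134 CPM and 162, 158 and 156 CPM (log2 change 0.25 ± 0.05, adjusted p = 0.035). The one gene that fell, Plxna4, was at 5.95, 3.44 and 3.49 CPM and 1.72, 2.12 and 2.22 CPM (log2 change -1.03 ± 0.23, adjusted p = 0.0495).

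Markers moved in this comparison too. Of 10 endothelial markers 7 rose, their sum going from 147 to 161 CPM to 271 to 288 CPM. Robo4 rose in this comparison as well. In experiment 3, whose groups differed in every marker list, Robo4 was higher in the libraries labelled DKO and all 10 endothelial markers were lower. The relation of Robo4 to these markers was not tested. Blood markers summed to 22.8 to 26.4 CPM and 32.6 to 34.5 CPM, with 1 of 6 tested higher, and the neural markers to 166 to 171 CPM and 132 to 137 CPM, with 3 of 11 lower. The part of these markers' cells in the guidance gene changes was not tested.

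These calls depended on which libraries were included. The count of 6 became 2 without untreated replicate 1, 0 without untreated replicate 2, and 1 without treated replicate 2 or treated replicate 3 (edgeR). It became 9 without untreated replicate 3 and 7 without treated replicate 1. Over all genes, 637 became 203 and 81 without untreated replicates 1 and 2, and 140 and 91 without treated replicates 2 and 3. They became 1839 without untreated replicate 3 and 791 without treated replicate 1, so the count over all genes moved in the same direction each time. Without untreated replicate 2, 15 of the 61 genes had an unadjusted p under 0.05 in edgeR's test, and DESeq2 called 5. The matching counts over all genes were not made, so these counts tell nothing about the guidance genes as a set. With the summed level of olfactory, vomeronasal and trace-amine receptor genes as a covariate, 1 guidance gene and 121 of all 21086 genes were called. That sum was 625, 205 and 53.4 CPM in the untreated H188A libraries and 44.0, 98.4 and 37.5 CPM in the treated ones. Its part in the result was not tested. Treated replicate 1, the library with the high endoderm markers, was also high for Sema6d, at 24.6, 7.45 and 6.76 CPM in the treated libraries, for Plxna2, at 46.7, 28.4 and 24.8 CPM, and for Efnb1, at 31.1, 19.9 and 19.7 CPM, and none of these passed the test.

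The test of the difference between the DOX responses of both lines called 30 of the 61 guidance genes, 49.2%, beside 14.4% of 25516 genes tested (8.22% with a more positive and 6.20% with a more negative response in the H188A line). The difference, given as the response in the H188A line minus that in iETV2, was negative for 14 genes and positive for 16. It was -4.57 ± 0.27 for Unc5c, -3.70 ± 0.32 for Robo2, -2.63 ± 0.24 for Plxna4, -1.84 ± 0.40 for Sema3a and -1.42 ± 0.23 for Robo4, all of which rose with DOX in iETV2. Without treated H188A replicate 1 the difference for Sema3a was -2.51. Among genes that fell in iETV2, the difference was 1.34 ± 0.16 for Slit2, 1.14 ± 0.20 for Slit1 and 1.11 ± 0.19 for Ephb1. It was 1.08 ± 0.14 for Sema3e and 1.00 ± 0.12 for Efnb2. Sema3b, Sema4g, Sema5a, Sema6d, Epha7 and Robo3 also fell in iETV2, but their differences did not pass the test. Sema3f also had a positive difference, of 0.80 ± 0.13, with its rise in the H188A line. The line and the experiment coincide, so they cannot be told apart as the source of these differences.

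**Figure D2:**
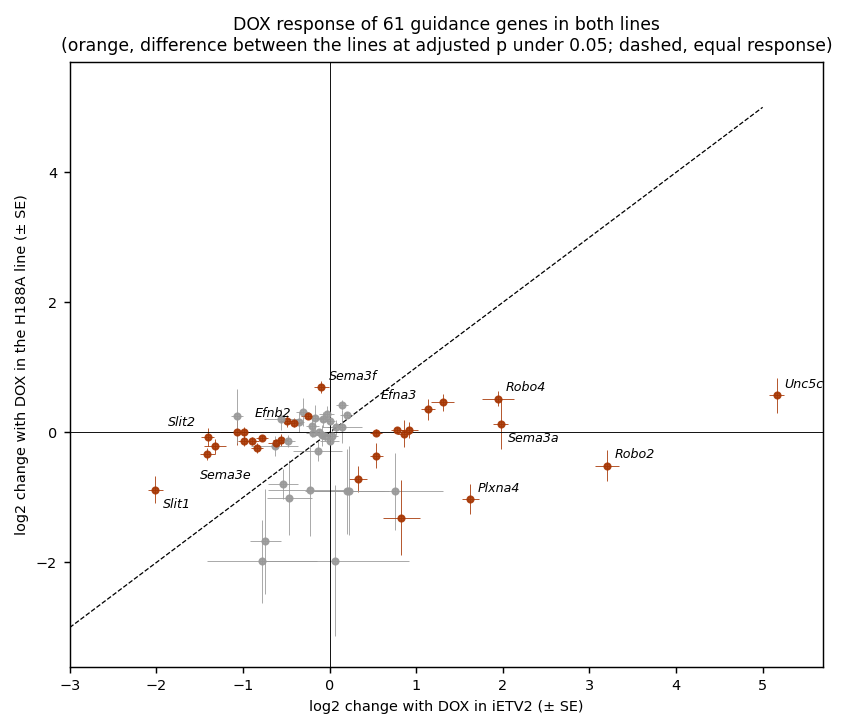
Log2 change with DOX of the 61 guidance genes in the iETV2 line (horizontal axis) and the H188A line (vertical axis), each ± SE, 3 libraries against 3; the dashed line marks an equal response, and orange marks the 30 genes whose responses differed at an adjusted p under 0.05. Unc5c lies at 5.17 and 0.57, Robo2 at 3.20 and -0.51, and Slit1 at -2.01 and -0.88; the points in grey with wide bars are genes with few reads.

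The untreated lines already differed in 42 of the 61 guidance genes, 68.9%, beside 38.3% of 25516 genes tested. In the H188A line 30 of them were lower (all genes, 18.6% lower) and 12 higher (all genes, 19.7% higher), and the median log2 difference was -0.45 among the guidance genes and 0.10 among all genes. All 3 Slits, 4 of 5 ephrin-A ligands and 6 of the 7 semaphorins of classes 5 to 7 were lower, and 3 of 6 class 4 semaphorins and Robo2 and Robo4 were higher. The summed level of the 61 genes was 3221 to 3309 CPM in untreated iETV2 and 1930 to 1959 CPM in the untreated H188A line.

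Slit2 had the largest difference, with 216, 225 and 214 CPM in untreated iETV2 and 15.6, 14.2 and 14.7 CPM in the untreated H188A line (log2 difference -3.83 ± 0.12, adjusted p = 1.06e-12). Slit1 was at 34.1, 34.2 and 35.2 CPM against 4.26, 2.94 and 3.28 CPM (log2 difference -3.27 ± 0.14), and Slit3 at 141, 157 and 143 CPM against 28.7, 30.3 and 29.9 CPM (log2 difference -2.26 ± 0.10). The groups were far apart for each Slit. Robo2 differed in the other direction, with 1.53, 1.67 and 2.44 CPM against 11.01, 9.10 and 9.42 CPM (log2 difference 2.46 ± 0.24, adjusted p = 4.56e-07). Robo4 was at 1.70, 1.44 and 2.79 CPM against 6.74, 5.98 and 5.38 CPM (log2 difference 1.69 ± 0.17). Robo1 was at 66.7, 72.04 and 66.9 CPM against 67.8, 69.02 and 67.9 CPM and its groups overlapped.

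On the ephrin side, Epha1 was at 218, 199 and 204 CPM in untreated iETV2 and 30.5, 29.7 and 28.3 CPM in the untreated H188A line (log2 difference -2.76 ± 0.08, adjusted p = 3.33e-13). Efna1, the first ephrin found and a ligand of Epha2, was at 7.65, 8.51 and 9.37 CPM against 1.79, 1.08 and 1.06 CPM (log2 difference -2.68 ± 0.18). Ligand and receptor were both lower in the H188A line. Epha2 itself differed less, with 132, 124 and 127 CPM against 85.4, 77.5 and 76.3 CPM (log2 difference -0.63 ± 0.08), and Efnb3 was also lower (log2 difference -1.46 ± 0.16). Ephb4 was lower in the H188A line, with 126, 117 and 116 CPM against 76.2, 78.6 and 76.5 CPM (log2 difference -0.58 ± 0.07). Efnb2 was slightly higher there (log2 difference 0.31 ± 0.09, adjusted p = 0.00842). The call for Efnb2 was lost without untreated H188A replicate 3 (adjusted p = 0.0574) and without a filter on low counts (0.535).

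Among semaphorins and plexins, Sema6d was at 70.8, 77.8 and 75.99 CPM in untreated iETV2 and 12.02, 11.7 and 9.95 CPM in the untreated H188A line (log2 difference -2.69 ± 0.33). Plxna2 was at 251, 269.9 and 259 CPM against 43.3, 45.02 and 43.8 CPM (log2 difference -2.51 ± 0.17, adjusted p = 6.52e-09). Sema3f was at 29.5, 31.3 and 29.2 CPM against 7.07, 6.45 and 6.08 CPM (log2 difference -2.15 ± 0.09). These 3 genes were lower in every H188A library than in any iETV2 library. The class 4 semaphorins Sema4b, at 42.7, 45.1 and 45.04 CPM against 110.3, 114 and 118 CPM (log2 difference 1.42 ± 0.08), Sema4d (log2 difference 1.15 ± 0.10) and Sema4a (log2 difference 1.19 ± 0.25) were higher in the H188A line. Markers differed as well: 7 of 7 primitive streak markers were lower in the H188A line, with a sum of 1267 to 1339 CPM in untreated iETV2 and 19.3 to 20.3 CPM in the untreated H188A line, where T, Mixl1, Evx1 and Mesp1 were under 1 CPM in every library. The 11 neural markers summed to 68.4 to 73.8 CPM in untreated iETV2 and 166 to 171 CPM in the H188A line, with 8 higher and 1 lower. The 10 endothelial markers summed to 33.8 to 38.7 CPM and 147 to 161 CPM, with 6 higher and 2 lower. Of 8 pluripotency markers 6 were higher and 1 lower, and of 6 cardiac markers 1 was higher and 3 lower. The blood, endoderm and fibroblast lists each had as many higher as lower. The part of these markers' cells in the differences was not tested.

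With DOX in both lines, 44 of the 61 genes differed, 72.1%, beside 37.6% of 25516 genes tested. In the treated H188A line 31 were lower (all genes, 17.6%) and 13 higher (all genes, 19.9%). Unc5c, at 112, 119.8 and 115 CPM in treated iETV2 and 5.27, 3.73 and 2.85 CPM in the treated H188A line, had a log2 difference of -4.79 ± 0.18 (adjusted p = 1.12e-11). Plxna4 followed with -3.90 ± 0.18 and Plxna2 with -3.40 ± 0.18, and all 4 Unc5 genes differed, Unc5a alone being higher in the H188A line (log2 difference 0.80 ± 0.18). Sema3a had a log2 difference of -3.12 ± 0.29, or -3.79 without treated H188A replicate 1, and Sema6d one of -1.37 ± 0.33, or -2.24 without that library. Efnb2 was at 41.2, 45.03 and 40.7 CPM against 107, 96.2 and 93.9 CPM and so was higher in the treated H188A line (log2 difference 1.32 ± 0.09). Robo2, which was higher in the H188A line without DOX, was lower there with DOX, at 16.8, 17.7 and 16.00 CPM against 10.01, 5.17 and 4.90 CPM (log2 difference -1.24 ± 0.21). These comparisons share their libraries with the DOX comparisons within each line.

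**Figure D3:**
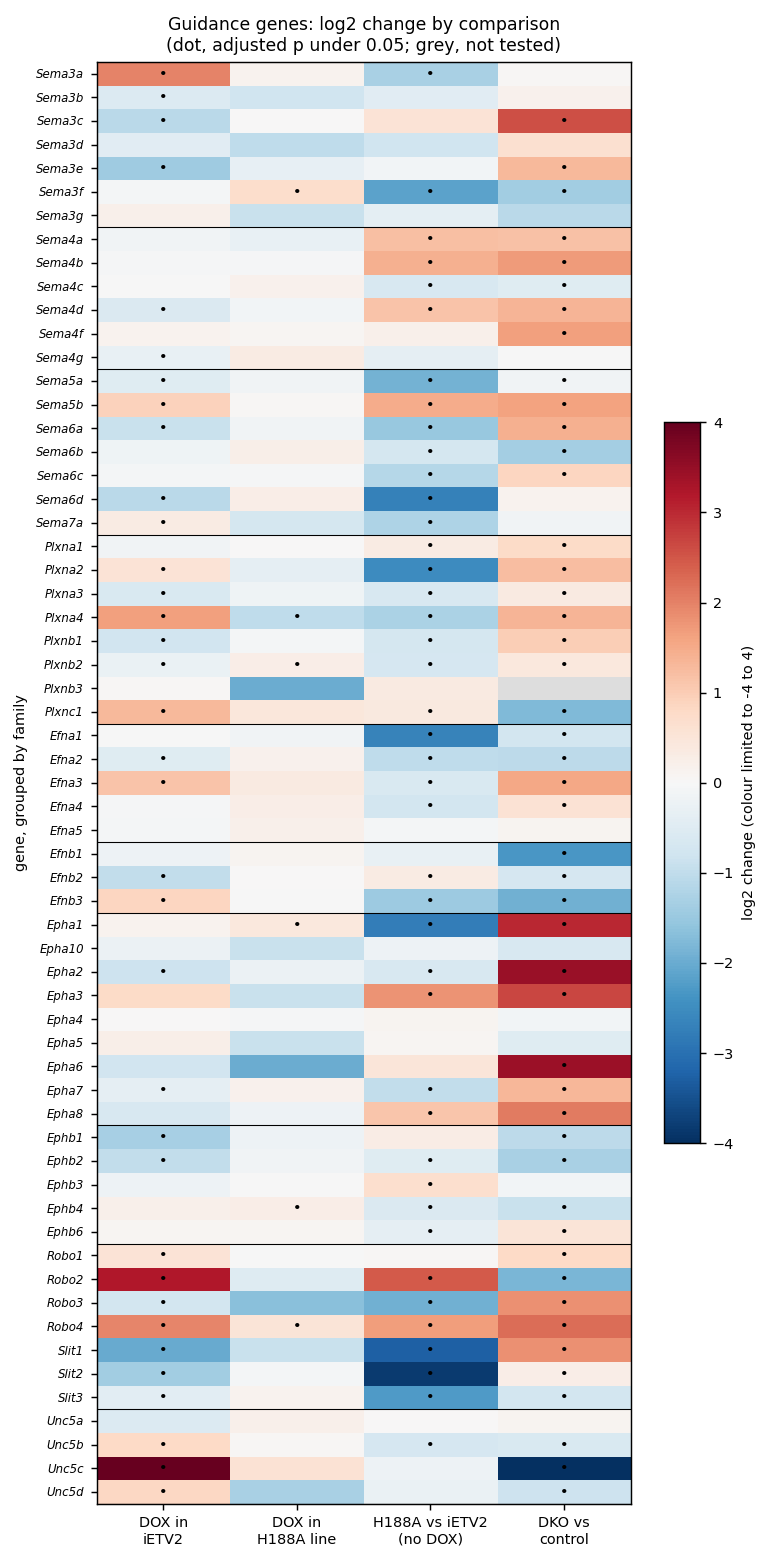
Log2 change of the 61 guidance genes (rows, grouped by family) in 4 comparisons (columns), red for higher and blue for lower in the group named first or with DOX, with colour limited to -4 to 4; a dot marks an adjusted p under 0.05 and grey the 1 gene not tested. The DOX columns hold 35 dots for iETV2 and 6 for the H188A line, and the DKO column 47.

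In experiment 3 the targeted genes were measured first. Kdm4a was at 53.9, 54.4 and 55.7 CPM in the control libraries and 42.9, 46.9 and 41.98 CPM in those labelled DKO (log2 change -0.44 ± 0.05), and Kdm4c was at 30.2, 32.2 and 29.6 CPM and 47.96, 42.7 and 45.96 CPM (log2 change 0.45 ± 0.06). Counts over whole genes do not show which exons were removed, so these levels do not check the knockout, and Kdm4c RNA was higher, not lower, in the libraries labelled DKO. Of 60 guidance genes tested (Plxnb3, singled out after its values were seen, had too few reads), 47 changed, 29 upward and 18 downward. That is 78.3%, beside 69.3% of 20426 genes tested (35.6% higher and 33.7% lower). With a filter of at least 1 CPM in 3 libraries, 45 of 55 guidance genes and 12483 of all 15589 genes were called. Those shares lie close together, so the count of calls does not set the guidance genes apart here. EphA receptors, plexins and class 4 semaphorins mostly rose, and all 3 ephrin-B ligands and 3 of 4 Unc5 receptors fell. The median size of the log2 change was 1.04 among the guidance genes and 0.56 among all genes.

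Unc5c again had the largest change. It was at 393, 390.0 and 386 CPM in the control libraries and 15.3, 15.8 and 15.8 CPM in those labelled DKO (log2 change -4.76 ± 0.05, adjusted p = 1.26e-25). Unc5b was at 364, 350.5 and 355 CPM and 257, 254 and 247 CPM (log2 change -0.62 ± 0.04), and Unc5d fell as well (log2 change -0.83 ± 0.26). All 3 netrin receptors were lower in every library labelled DKO.

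In the Slit and Robo family all 7 genes changed, 5 upward and 2 downward. Robo4 was at 0.952, 0.725 and 1.36 CPM in the control libraries and 5.64, 5.28 and 4.97 CPM in those labelled DKO (log2 change 2.25 ± 0.19, adjusted p = 1.02e-09), and Slit1 was at 2.07, 1.49 and 2.51 CPM and 8.14, 7.66 and 7.77 CPM (log2 change 1.82 ± 0.15). Robo1 rose from 52.3, 54.1 and 52.4 CPM to 97.7, 98.8 and 102 CPM (log2 change 0.79 ± 0.04). Robo2 and Slit3 were the members that fell. Robo2 was at 25.1, 24.5 and 22.7 CPM and 6.87, 7.45 and 7.96 CPM (log2 change -1.82 ± 0.08), and Slit3 at 107, 100.9 and 103 CPM and 69.9, 69.4 and 63.2 CPM (log2 change -0.74 ± 0.05). Slit2 changed little, from 31.7, 28.4 and 30.2 CPM to 38.5, 38.4 and 41.5 CPM (log2 change 0.27 ± 0.06, adjusted p = 0.000325).

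In the libraries labelled DKO, 6 of 9 EphA receptors rose and the other 3 did not pass the test. Epha2 was at 10.7, 11.1 and 11.1 CPM in the control libraries and 136, 135 and 123 CPM in those labelled DKO (log2 change 3.46 ± 0.05, adjusted p = 1.7e-22). Epha1 was at 11.2, 8.31 and 9.09 CPM and 89.1, 86.1 and 79.8 CPM (log2 change 3.03 ± 0.08). Neither gene came near overlap between the groups. Epha8 and Epha7 rose too (log2 changes 2.09 ± 0.31 and 1.34 ± 0.11). The other receptors that rose, Epha6 and Epha3, averaged under 1 CPM in the comparison and are named after their values were seen: Epha3 was at 0.0898, 0.137 and 0.332 CPM and 0.832, 1.66 and 1.52 CPM (log2 change 2.69 ± 0.45, or 3.40 without control replicate 3).

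Of the A ligands, Efna3 and Efna4 rose and Efna1 and Efna2 fell. Efna3 was at 17.6, 14.3 and 16.7 CPM in the control libraries and 49.7, 52.2 and 51.6 CPM in those labelled DKO (log2 change 1.54 ± 0.07). Efna1 was at 7.47, 8.61 and 8.79 CPM and 5.90, 5.49 and 4.76 CPM (log2 change -0.75 ± 0.11), lower where its receptor Epha2 was higher. The ephrin-B ligands all fell. Efnb1 was at 44.8, 43.7 and 41.99 CPM and 9.23, 9.88 and 9.07 CPM (log2 change -2.33 ± 0.07, adjusted p = 5.82e-18), Efnb3 at 35.96, 35.5 and 33.9 CPM and 9.83, 9.92 and 10.3 CPM (log2 change -1.93 ± 0.07). Efnb2 fell from 82.1, 90.3 and 81.05 CPM to 57.1, 58.1 and 58.6 CPM (log2 change -0.67 ± 0.05). Of their receptors, Ephb2 (log2 change -1.29 ± 0.06), Ephb1 (-1.04 ± 0.22) and Ephb4 (-0.89 ± 0.04) fell and Ephb6, whose kinase domain is inactive, rose (0.52 ± 0.11). Ephb4 was at 75.98, 77.2 and 78.3 CPM in the control libraries and 46.9, 45.5 and 44.1 CPM in those labelled DKO.

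**Figure D4:**
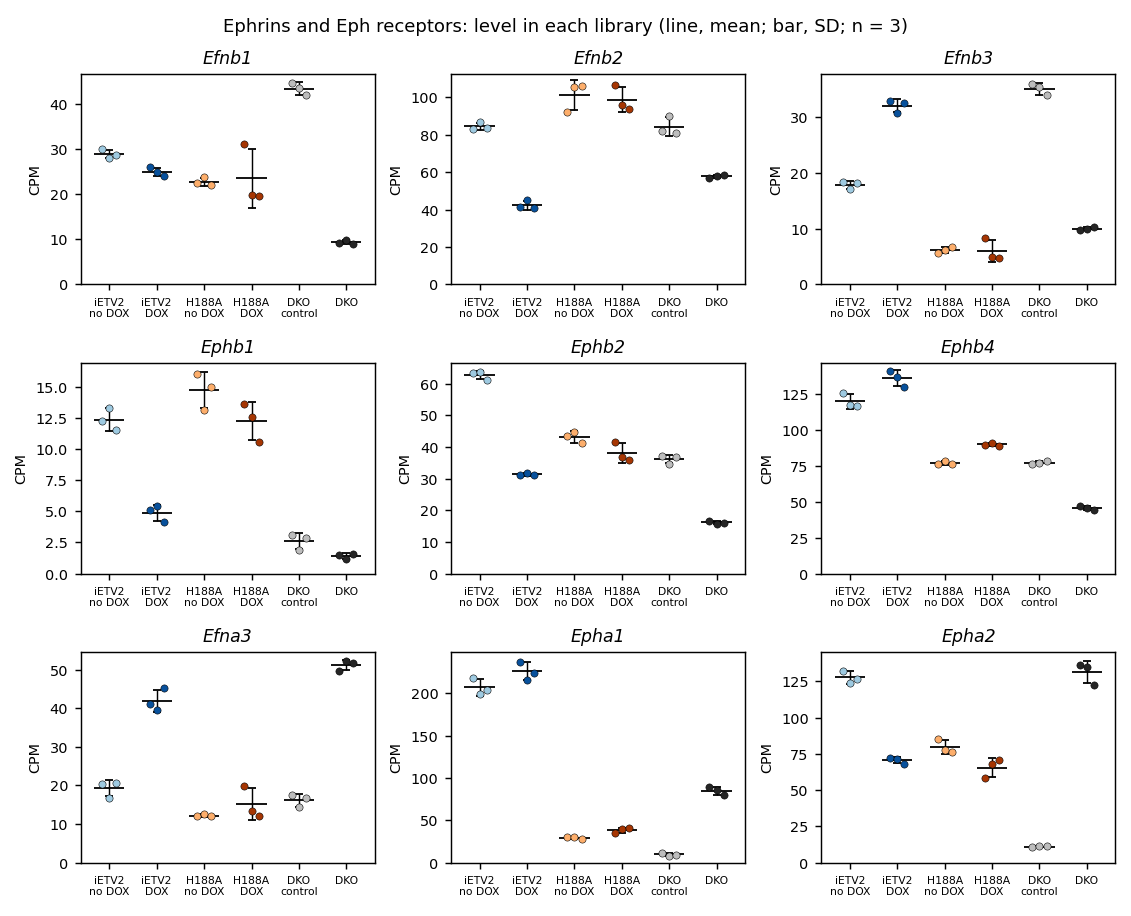
Level in CPM of 9 ephrin and Eph receptor genes in each of the 18 RNA libraries, by group; each point is 1 library, the line is the mean and the bar the SD of 3 libraries, and every axis starts at 0. In the libraries labelled DKO, Efnb1, Efnb2, Efnb3, Ephb2 and Ephb4 lie below their controls and Epha1, Epha2 and Efna3 above them; with DOX in iETV2, Efnb2, Ephb1, Ephb2 and Epha2 are lower.

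Of the class 4 semaphorins 4 of 6 rose: Sema4b was at 24.3, 23.01 and 23.9 CPM in the control libraries and 85.8, 84.05 and 82.7 CPM in those labelled DKO (log2 change 1.70 ± 0.05), and Sema4f, Sema4d and Sema4a had log2 changes of 1.63 ± 0.31, 1.36 ± 0.07 and 1.17 ± 0.22. The receptor of Sema4d, Plxnb1, rose from 31.2, 29.8 and 29.3 CPM to 70.2, 64.1 and 61.1 CPM (log2 change 0.99 ± 0.06). Sema6a rose from 64.3, 60.1 and 63.7 CPM to 190.3, 176 and 188.5 CPM (log2 change 1.44 ± 0.04), as did its receptors Plxna2, from 55.8, 56.6 and 56.2 CPM to 147, 142 and 147 CPM (1.25 ± 0.04), and Plxna4, from 32.3, 32.9 and 30.8 CPM to 94.4, 90.9 and 84.8 CPM (1.37 ± 0.05). Plxnc1 was the only 1 of the 7 tested plexins that fell (log2 change -1.78 ± 0.09). Among the secreted class 3 genes, Sema3e rose from 11.9, 11.7 and 13.3 CPM to 33.97, 33.4 and 32.5 CPM (log2 change 1.31 ± 0.06) and Sema3f fell from 22.6, 20.4 and 23.1 CPM to 9.87, 8.36 and 9.47 CPM (log2 change -1.38 ± 0.08). Sema3c rose from 0.216, 0.216 and 0.506 CPM to 2.50, 1.80 and 1.94 CPM (log2 change 2.58 ± 0.34). Sema3a was at 2.84, 2.43 and 3.30 CPM and 3.10, 3.26 and 3.24 CPM with overlapping groups, and so was far from the level of treated iETV2 in both.

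The control libraries and those labelled DKO also differed in every marker list. Beside the pluripotency markers, endothelial markers summed to 670.3 to 678 CPM among the controls and 178 to 185 CPM in those labelled DKO, with 10 of 10 lower. Robo4 went the other way from the endothelial markers and was higher in the libraries labelled DKO. Blood markers summed to 1298 to 1356 CPM and 29.4 to 31.3 CPM, with 8 of 8 lower. The 6 cardiac markers went from 904 to 952 CPM to 112 to 114 CPM with all 6 lower, and 6 fibroblast markers from 513 to 521 CPM to 47.3 to 50.8 CPM with 5 lower. Primitive streak markers went from 268 to 273 CPM to 935 to 963 CPM, with 5 of 7 higher and 1 lower. Neural markers went from 16.5 to 19.0 CPM to 62.3 to 65.8 CPM, with 7 of 8 tested higher. The part of these cells in the guidance gene changes was not tested. Of the 35 genes that changed with DOX in iETV2 and the 47 that changed here, 30 were in both (85.7% and 63.8%): 12 were lower with DOX and higher in the libraries labelled DKO, 6 were higher with DOX and lower in those libraries, and 12 had the same sign in both. Over all 19521 genes tested in both comparisons, those called in both made up 82.5% of the genes called with DOX and 34.8% of those called here, and 61.1% of them had opposite signs, beside 18 of the 30 guidance genes.

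Other genes of the guidance pathways, a list of 69 coreceptors, netrins, adaptors and GTPase regulators, were also counted. With DOX in iETV2, 24 of 68 tested rose and 16 fell (all genes, 13.7% and 13.3%), with the largest log2 changes for the neuropilin Nrp2 (2.73 ± 0.07), Plxnd1 (2.71 ± 0.08), the receptor of Sema3e, and the adhesion protein L1cam (2.23 ± 0.09). In the H188A line 9 of 68 rose in edgeR's test (all genes, 2.22%) and the other 59 did not pass it, led by Plxnd1 (2.23 ± 0.11). Plxnd1 was at 5.504, 5.03 and 4.06 CPM without DOX and 21.7, 21.4 and 22.5 CPM with DOX in that line, and at 18.8, 18.2 and 18.9 CPM and 123, 126 and 111 CPM in iETV2. Of the 68 genes, 15 had a more positive and 11 a more negative response in the H188A line (all genes, 8.22% and 6.20%), among the latter L1cam (-2.94 ± 0.18) and Nrp2 (-2.05 ± 0.10). Between the untreated lines 16 were higher and 24 lower in the H188A line (all genes, 19.7% and 18.6%), Nrp1 with a log2 difference of -2.63 ± 0.23, and between the treated lines 18 were higher and 28 lower (all genes, 19.9% and 17.6%). In the libraries labelled DKO, 23 of 66 rose and 31 fell (all genes, 35.6% and 33.7%). The netrin gene Ntn1, whose product is a ligand of Unc5 receptors, rose most there, with a log2 change of 4.87 ± 0.07, from 3.79, 4.57 and 5.63 CPM to 156, 146 and 145 CPM, and Plxnd1 fell (-2.91 ± 0.05).

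H3K9me3 lay over 16 of the 61 guidance genes in all 6 ChIP libraries, 26.2%, beside 14% of 21887 protein-coding genes; a gene counts when a deposited region shares at least 1 base with it. In any library 23 were overlapped, 37.7% beside 28.4%. The guidance genes are long, with a median span of 44 kb against 17.2 kb for all. Among genes of 100 kb or more, 15 of 27 guidance genes (55.6%) and 50.4% of all genes were overlapped in all libraries, and among shorter ones 1 of 34 (2.94%) and 9.4%. That short gene was Sema6b, named after its values were seen. No guidance gene was overlapped in all libraries of one treatment and none of the other. Only 0.388% of all protein-coding genes were, so a count of 0 among 61 genes tells nothing about the guidance genes.

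The marked share of each gene was small. Robo2, the longest, had regions over 1.11%, 0.62% and 0.72% of its span in the DOX libraries and 0.58%, 1.00% and 0.80% in the untreated ones. Sema3a had 1.71%, 1.04% and 1.50% with DOX and 1.38%, 1.46% and 0.84% without. In both genes the ranges overlapped. Their RNA rose with DOX in iETV2, in samples labelled as embryonic stem cells and not as embryoid bodies. Of the 16 genes overlapped in all libraries, Sema3d, singled out after its values were seen, was the one whose shares lay apart. They were 5.35%, 3.60% and 2.33% with DOX and 2.24%, 2.04% and 2.24% without, so the groups nearly touched. How many of all genes lie apart in this way was not counted, so 1 of 16 tells nothing about the guidance genes. Unc5c was overlapped in 2 of 3 DOX libraries and 1 of 3 untreated ones, with at most 1.03% of its span. Slit2, Robo4, Efnb2, Epha2 and Ephb4 were overlapped in none of the 6 libraries. None of 69 promoter windows of 53 guidance genes was overlapped in any library, beside 6.73% of windows of all protein-coding genes.

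**Figure D5:**
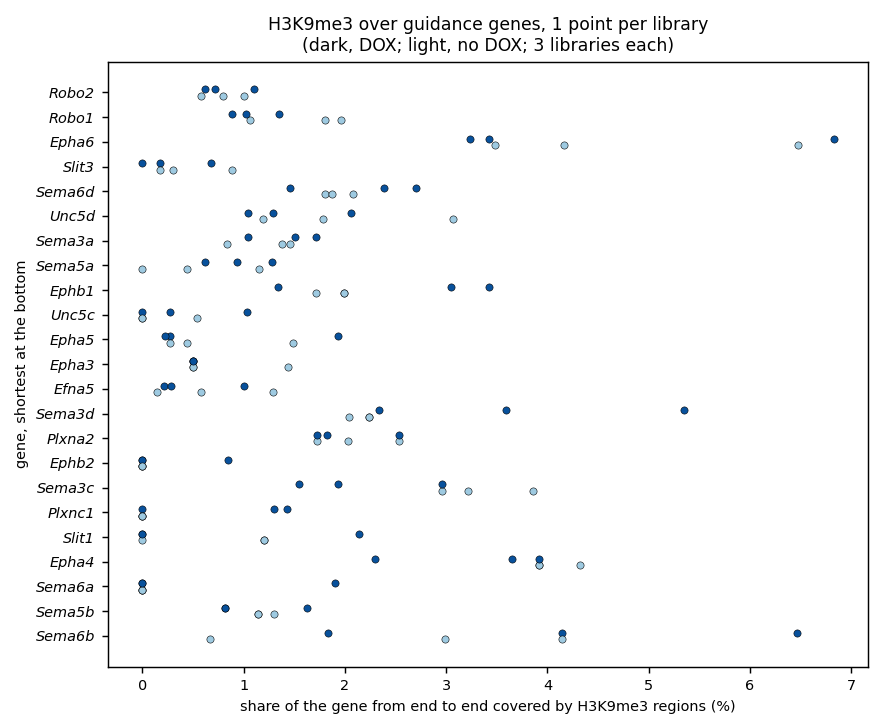
Share of the gene's span (%) covered by H3K9me3 regions, for the 23 guidance genes overlapped in at least 1 of the 6 ChIP libraries, ordered by length with the longest at the top; each point is 1 library, dark with DOX and light without. Among the 16 genes overlapped in all 6 libraries, the dark points of Sema3d all lie above its light ones, by a narrow margin. The ranges of the other 15 overlap or touch, and the share of all genes that lie apart was not counted. No gene is covered over more than 6.83% of its span.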

How the data were processed

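RNA was measured in 18 libraries, 6 groups of 3, and H3K9me3 in 6 ChIP libraries with 6 inputs (not used). For each library the authors deposited unscaled counts by Ensembl gene; per the submitters' processing notes the tools included HTSeq 2.0.3, featureCounts 2.0.6, StringTie 2.2.1, STAR 2.7.10b, Picard 3.0.0, DESeq2 1.18.1, Bowtie, ChIPseeker and DiffBind, with builds GRCm38 and mm10. Which tool counted, the strand setting and the region caller are not given in the sources used here. Of the 61 genes 31 overlap another annotated gene, so their counts could include its reads. Per the file headers each ChIP region has counts in ChIP and input, a p-value with its FDR, a score and a log2 fold change by the authors; every deposited region had an FDR under 0.05.

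Counts were tested over all genes passing filterByExpr with edgeR 4.0.16 (R 4.3.3; TMM, glmQLFit, glmQLFTest, Benjamini-Hochberg, threshold 0.05), within the 6 libraries of a comparison, or the 12 of both lines with 4 group means. Standard errors are the absolute log2 change over the root of the F statistic. The code was tested on simulated data. No replicate pair differed by as little as sampling noise. Gene positions and promoters came from RefSeq GRCm38.p6, with 61 and 53 genes matched. The genes and lists were chosen with earlier results of these data known. Genes named with values were, per family and comparison, up to 4 that passed the test with at least 1 CPM on average and groups that did not overlap, and a panel of 22 genes with known roles in vessels or mesoderm. Of other genes, Etv2, Kdm4a, Kdm4c, Plxnd1, Nrp1, Nrp2 and up to 3 per list and comparison were named. Alternatives were DESeq2 1.42.0, RLE scaling, no filter, a stricter filter, a replicate block, a receptor covariate, the 12-library fit and leaving out each library; for ChIP, stricter regions and overlaps.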

Additional observations from a re-analysis of the deposited data

Results flagged for a closer look

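For 30 guidance genes the response to DOX differed between the iETV2 and H188A lines by edgeR's test of the difference itself, with an adjusted p under 0.05. As the log2 response in the H188A line minus that in iETV2, the 14 negative differences were Unc5c -4.57, Robo2 -3.70, Plxna4 -2.63, Unc5d -2.11, Sema3a -1.84, Robo4 -1.42, Sema7a -1.03, Plxna2 -0.89, Efnb3 -0.88, Sema5b -0.87, Plxnc1 -0.84, Efna3 -0.78, Unc5b -0.74 and Robo1 -0.53. The 16 positive differences were Slit2 1.34, Slit1 1.14, Ephb1 1.11, Sema3e 1.08, Sema3c 1.08, Efnb2 1.00, Ephb2 0.87, Sema3f 0.80, Sema6a 0.77, Plxnb1 0.70, Efna2 0.68, Epha2 0.61, Slit3 0.57, Plxnb2 0.51, Plxna3 0.46 and Sema4d 0.45. Of these, Robo1, Unc5b, Unc5d, Sema4d, Sema3c, Plxna3, Plxnb2 and Slit3 lost their call in at least 1 alternative. Plxnb2 and Slit3 lost it only without treated H188A replicate 1, and the difference for Unc5d was -1.40 without untreated H188A replicate 1. Line and experiment coincide and cannot be told apart.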

How the results depend on the processing

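No guidance gene that passed the test changed direction in any alternative run. With at least 1 CPM in 3 libraries required, 32 of 57 were called for the difference in response (all genes, 4682 of 16654). Between the untreated lines 43 of 57 were called (all genes, 10086 of 16654). Between the treated lines 46 of 57 were called (all genes, 9798 of 16654). The counts of genes called stayed within 1.5 times of those reported in 5 of the 6 RNA comparisons, and the 16 genes overlapped by H3K9me3 became 13 to 17. The exception was DOX in the H188A line, where 6 genes became 13 without a filter on low counts (2032 of all 49423 genes tested). They became 1 with a replicate block (263 of all 21086) and 1 with the receptor sum as covariate (121 of all 21086). Leaving out 1 library gave 0 to 9. DESeq2 called 9 there, and of all genes 1443 beside 637 by edgeR. The count over all genes without 1 library ran from 81 to 1839; the cause was not tested. Genes called in every alternative numbered 28 of 35 for iETV2 treated with DOX, 0 of 6 for the treated H188A line, 46 of 47 for DKO, 22 of 30 for the difference in response, 37 of 42 between the untreated and 37 of 44 between the treated lines. Same-numbered replicates deviated together by r = 0.072, 0.311 and 0.577 in iETV2, where differently numbered ones ran from -0.564 to 0.442. For same numbers r was -0.240, 0.135 and 0.370 in the H188A line and -0.002, -0.008 and 0.026 in the DKO experiment. The main test did not pair libraries by number, and whether the iETV2 numbers mark pairs was not settled. With the replicate block 42, 1, 47, 29, 41 and 43 guidance genes were called in that order of comparisons. Over all genes the block called 8380 of 22025 for iETV2, 263 of 21086 for the H188A line and 13926 of 20426 for DKO. Of 25516 genes it called 3262 for the difference in response, 9311 between untreated and 8970 between treated lines. Without the block 5939 of all genes were called for iETV2. Plxnb3 and Epha5, under 1 CPM on average in all 6 groups, had wide errors, and no difference was detectable for them at this depth.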
